A study of Mus musculus with 9 samples.

Results

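The 10 genes described here handle calcium, phosphate and zinc in the small intestine. They were taken from a table of 31685 genes as a list of calcium and vitamin D genes (S100g, Trpv6, Vdr and Atp2b1), phosphate transporters (Slc34a2 and Slc20a1) and zinc genes (Mt1, Mt2, Slc39a4 and Slc30a10). No rule on their values set the list, but it was chosen with earlier results of these data known. All 10 were in the table, and 8 of them were among the 13056 genes tested, while Trpv6 and Mt2 lay under the filter of the test, which asked for 1 FPKM or more in 3 or more mice. FPKM is the number of fragments assigned to a gene, scaled to the gene's length and to the total of the library. RNA was sequenced from jejunal tissue of 9 wild-type male C57BL/6J mice aged 6 to 8 weeks, collected on day 3, with all libraries in the same labelled batch. The control group held 3 untreated mice, the TAI group 3 mice that received PBS after total abdominal irradiation (TAI) at 12 Gy, and the TAI/IVIg group 3 mice that were irradiated likewise and received intravenous immunoglobulin (IVIg, 500 mg/kg), first within an hour of the irradiation and then every 3 days. IVIg is a preparation of antibodies pooled from human donors. The libraries held 16278117 to 18238706 reads, and the groups overlapped in depth.

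Calcium enters the enterocyte through the apical channel TRPV6, is carried across the cell by calbindin-D9k (S100g) and leaves through the basolateral pump PMCA1 (Atp2b1), a route under the control of the vitamin D receptor. Phosphate is taken up with sodium through NaPi-IIb (Slc34a2) at the brush border, which in the mouse is most abundant in the distal small intestine, whereas PiT-1 (Slc20a1) is a more widely expressed sodium-phosphate transporter. Zinc is imported by ZIP4 (Slc39a4), the carrier lost in acrodermatitis enteropathica, and is bound inside the cell by the metallothioneins MT-1 and MT-2, whose transcription follows metal load through the zinc-sensing factor MTF1 and also responds to glucocorticoids. Slc30a10 belongs by sequence to the ZnT exporters and is best known as a manganese exporter.

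Mt1 and Mt2 are neighbouring genes on the same strand of chromosome 8, separated by 5513 bases, and their coding sequences are shown because the table gave this pair very different levels. In the following sequences from the GENCODE transcripts, capitals mark the bases at which the 2 differ.
Mt1: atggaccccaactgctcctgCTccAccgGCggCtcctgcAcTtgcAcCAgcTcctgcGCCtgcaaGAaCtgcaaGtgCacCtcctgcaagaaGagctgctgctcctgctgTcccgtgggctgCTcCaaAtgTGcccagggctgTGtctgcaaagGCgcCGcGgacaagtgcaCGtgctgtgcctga
Mt2: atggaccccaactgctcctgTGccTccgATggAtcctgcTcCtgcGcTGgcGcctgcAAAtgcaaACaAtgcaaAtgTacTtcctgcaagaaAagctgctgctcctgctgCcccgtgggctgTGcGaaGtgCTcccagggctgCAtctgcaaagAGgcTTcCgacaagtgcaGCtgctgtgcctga
The coding sequences are 186 bases long and differ at 38 of them (79.57% identical), and the longest run of bases that the full transcripts share is 20. The annotation places an antisense gene, Gm45774, over 432 of the 588 exonic bases of Mt2 (73.5%), leaving 156 bases that belong to Mt2 alone. No exon of another gene overlapped the exons of Mt1. Whether the counting used strand is not given in the sources used here, and without strand the reads of Mt2 and Gm45774 in the 432 shared bases cannot be told apart. The lengths behind the FPKM values matched the annotated exonic bases within 0.1% for 9 of the 10 genes, Mt2 and Mt1 among them. The exception was Slc30a10, at 6510.2 bases against 5836.

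The windows of 250 bases before the annotated starts (RefSeq, GRCm38.p6) were searched for the core of the metal response element, the site bound by MTF1, written as TGCACNC or TGCGCNC on either strand, with overlapping matches counted separately. The windows of both metallothioneins and of Slc34a2, the most abundant of the 10 genes, are shown with the matches in capitals, that of Mt1 printed without its last 7 bases, so that 243 bases end at the gene start of GENCODE, and that of Slc34a2 lying before a start inside the gene.
Mt1, chr8:94178839-94179081, plus strand: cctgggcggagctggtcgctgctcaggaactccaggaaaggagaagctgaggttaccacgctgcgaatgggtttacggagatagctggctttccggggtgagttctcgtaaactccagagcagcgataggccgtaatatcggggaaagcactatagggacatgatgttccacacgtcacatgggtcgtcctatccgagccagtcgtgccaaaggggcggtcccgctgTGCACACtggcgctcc
Mt2, chr8:94172368-94172617, plus strand: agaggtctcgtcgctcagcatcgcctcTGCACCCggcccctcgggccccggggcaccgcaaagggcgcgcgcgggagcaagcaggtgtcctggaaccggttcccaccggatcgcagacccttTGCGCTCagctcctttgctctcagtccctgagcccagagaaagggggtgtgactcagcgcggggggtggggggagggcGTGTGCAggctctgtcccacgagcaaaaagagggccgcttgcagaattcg
Slc34a2, chr5:53049103-53049352, plus strand: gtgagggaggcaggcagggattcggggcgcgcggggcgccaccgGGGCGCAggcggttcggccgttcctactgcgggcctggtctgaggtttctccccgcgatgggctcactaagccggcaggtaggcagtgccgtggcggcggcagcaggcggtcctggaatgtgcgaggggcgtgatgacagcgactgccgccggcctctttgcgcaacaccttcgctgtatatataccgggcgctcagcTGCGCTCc
At least 1 core was found in 9 of the 11 windows of the genes, which belonged to 8 of the 9 genes with a window, and in 21.4% of the 32851 windows in the table. The Mt2 window held 3 cores, the Mt1 window 1 and the Slc34a2 window 2, and 5.17% of all windows held at least 2. Only bases before an annotated start were searched, and cores downstream of that start, inside the annotated transcript, were not counted. The counts therefore do not rank the promoters of Mt1 and Mt2. The windows were not matched for base composition, and a match describes letters, not a bound site.

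Markers of villus enterocytes, the cells that carry Slc34a2, Alpi and Slc39a4, were higher for 9 of the 16 tested and lower for 0 in TAI against control, and for 11 and 0 in TAI/IVIg against control, where 8.81% and 9.06% of all genes tested were higher at a limma adjusted p under 0.05, and none of the 16 was at 0 in all mice. Their summed level was 14803 to 23605 FPKM in the control mice, 32967 to 53412 in the TAI mice and 48322 to 51866 in the TAI/IVIg mice. Fabp2 and Apoa1 made up most of this sum. The markers did not all rise, as 3 of the 16 had a log2 fold change below 0 in TAI and 2 in TAI/IVIg against control. Sis had the largest of these falls (-1.12, limma adjusted p = 0.0631, and -0.95, limma adjusted p = 0.0866). It was at 257 to 510 FPKM in the control mice, 129 to 196 in the TAI mice and 103 to 335 in the TAI/IVIg mice. In bulk tissue, fewer cells of a type and less RNA per cell cannot be told apart, and the part of the enterocyte markers in the rise of Slc34a2 and Mt1 was not tested. Markers of fibroblasts and muscle summed to 358 to 451 FPKM in the control mice, 409 to 557 in the TAI mice and 91.1 to 399 in the TAI/IVIg mice.

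The label of jejunum was compared with markers of the ends of the small intestine. Of the proximal markers, Gata4 was at 16.9 to 22.6 FPKM in the control mice, 11.1 to 16.7 in the TAI mice and 16.8 to 22.2 in the TAI/IVIg mice (log2 fold change against control -0.48 in TAI, limma adjusted p = 0.0713, and -0.03 in TAI/IVIg, limma adjusted p = 0.889), and Cybrd1, Slc40a1 and Onecut2 were under the filter, with none at 0 in all mice. Slc40a1 was at 0.995 to 1.87 FPKM in the control mice, 0.765 to 0.935 in the TAI mice and 0.371 to 0.883 in the TAI/IVIg mice. In the same order, Cybrd1 was at 0.584 to 0.752, 0.688 to 1.74 and 0.223 to 1.33, and Onecut2 at 0.028 to 0.096, 0.064 to 0.412 and 0.082 to 0.477. All 4 distal markers passed the filter, with Fabp6, the ileal bile acid binding protein, at 7415, 8177 and 7326 FPKM in the control mice, 1372, 1874 and 3529 in the TAI mice and 1351, 208 and 229 in the TAI/IVIg mice. Slc10a2, the ileal bile acid transporter, was at 138, 64.9 and 110.4 FPKM in the control mice, 75.5, 57.2 and 48.1 in the TAI mice and 29.5, 23.1 and 10.96 in the TAI/IVIg mice. The summed distal markers, most of which is Fabp6, ran from 7469 to 8278 FPKM in the control mice, 1469 to 3618 in the TAI mice and 244 to 1410 in the TAI/IVIg mice, with 1 of the 4 (Osr2) called lower in TAI against control, where 26.1% of all genes tested were, and 3 of the 4 (Fabp6, Slc10a2 and Osr2) in TAI/IVIg against control, where 37.4% were. Fabp6 in TAI against control had a log2 fold change of -1.87 and a limma adjusted p of 0.0549. Lactase (Lct), which is highest in the proximal to middle small intestine, was at 6.84, 16.6 and 4.82 FPKM in the control mice, 190, 210.2 and 106 in the TAI mice and 216, 341 and 343 in the TAI/IVIg mice. Lct was listed as an enterocyte marker, not as a proximal one, and is already among the enterocyte markers counted above. Fgf15, an ileal hormone and the last of the 4, was at 30.3, 16.4 and 19.5 FPKM in the control mice, 16.2, 29.7 and 34.7 in the TAI mice and 25.3, 5.85 and 6.02 in the TAI/IVIg mice, and was not called. The part of the sampled segment in the comparisons with control was not tested.

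**Figure D1:**
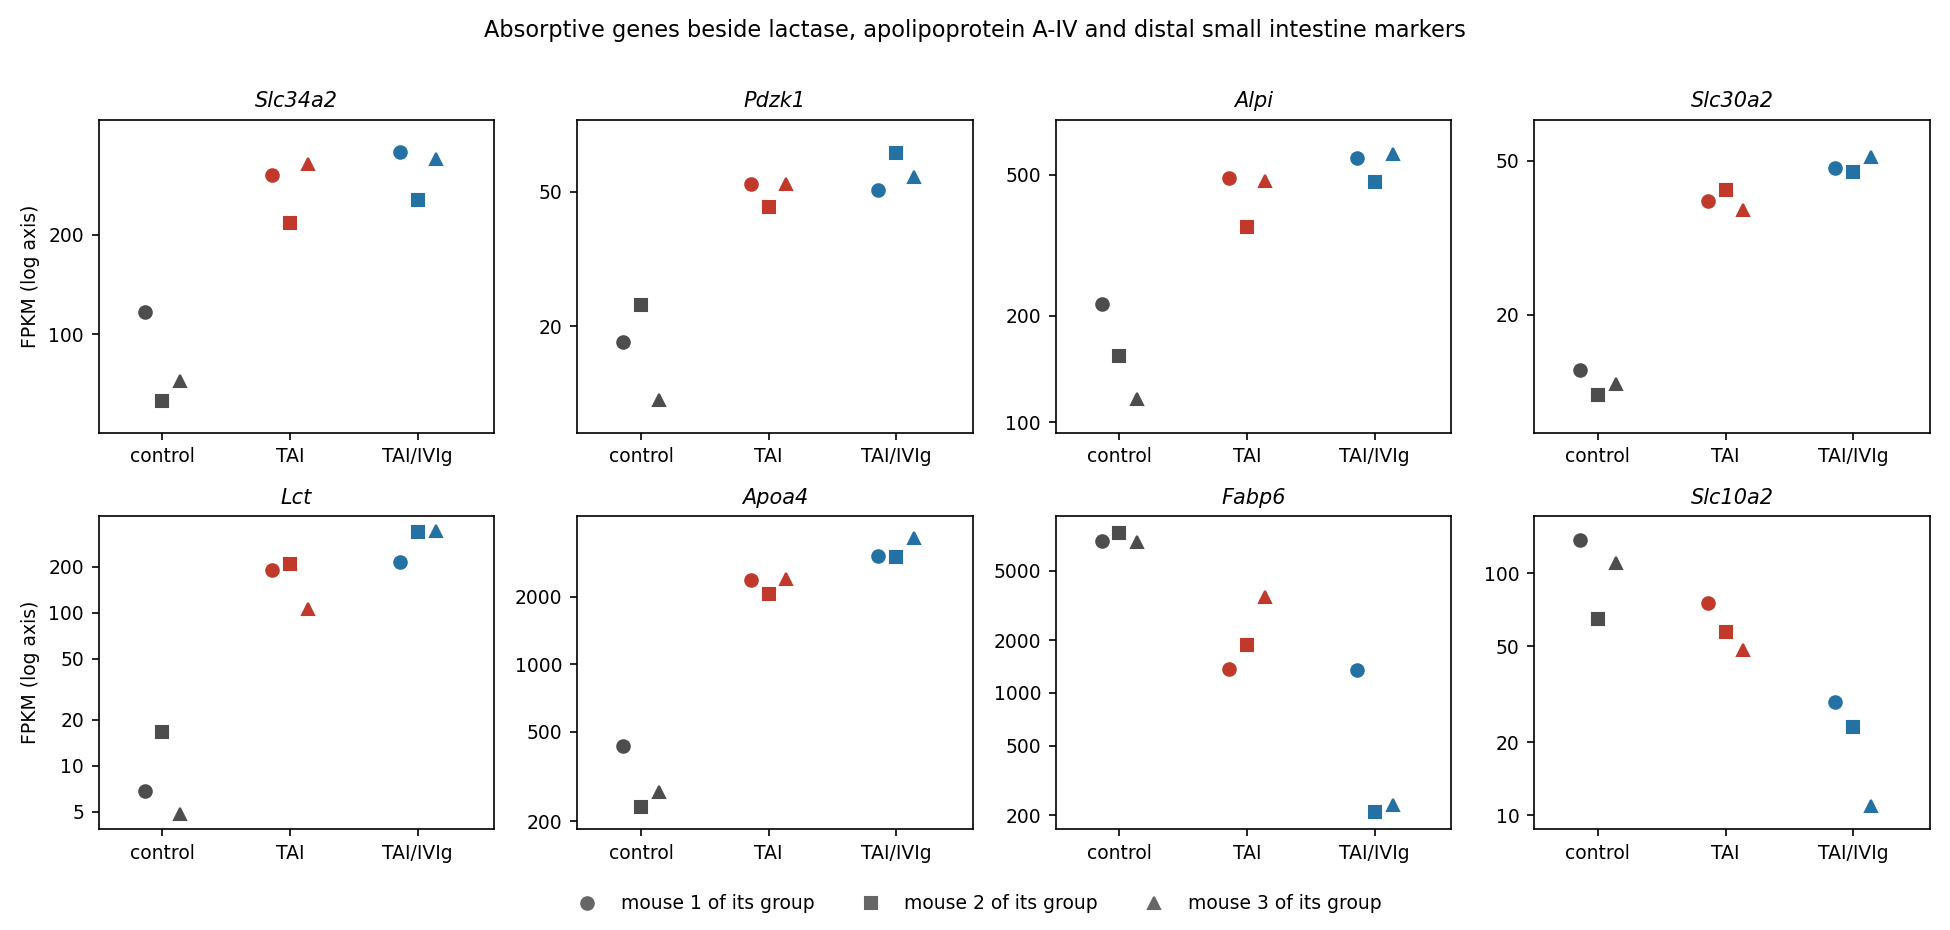
FPKM (log axes) in each mouse for Slc34a2, Pdzk1, Alpi and Slc30a2 (top) beside lactase (Lct), Apoa4, an enterocyte apolipoprotein, and the distal markers Fabp6 and Slc10a2 (bottom), with symbols for mouse 1, 2 and 3 of each group. The genes of the top row, Lct and Apoa4 are higher in all irradiated than in all control mice, and Fabp6 is lower. Lct and Apoa4 belong to the 16 enterocyte markers, of which the others, Sis among them, are not drawn.

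On the FPKM scale, which is per length, Slc34a2 in the control mice had the highest mean level at 83.9 ± 29.0 (SD, n = 3), followed by Slc39a4 at 57.5 ± 11.5 (SD, n = 3), and their ranges overlapped. Vdr, Mt1 and Atp2b1 followed, each with a range that did not overlap that of the gene above it. Slc30a10 overlapped both Atp2b1 and Slc20a1, and S100g, Mt2 and Trpv6 closed the order. Slc34a2 stood above all others in the TAI and TAI/IVIg mice, without overlap with the next gene, and Mt1 moved ahead of Vdr in the TAI mice, where their ranges did not overlap. In the TAI/IVIg mice Mt1 and Vdr overlapped by a narrow margin. The place of Mt1 depends on the length used, which was 1246 bases over all its annotated exons. The Mt1 transcript whose coding sequence is shown above has 549 bases, and a shorter length would give a higher FPKM.

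**Figure D2:**
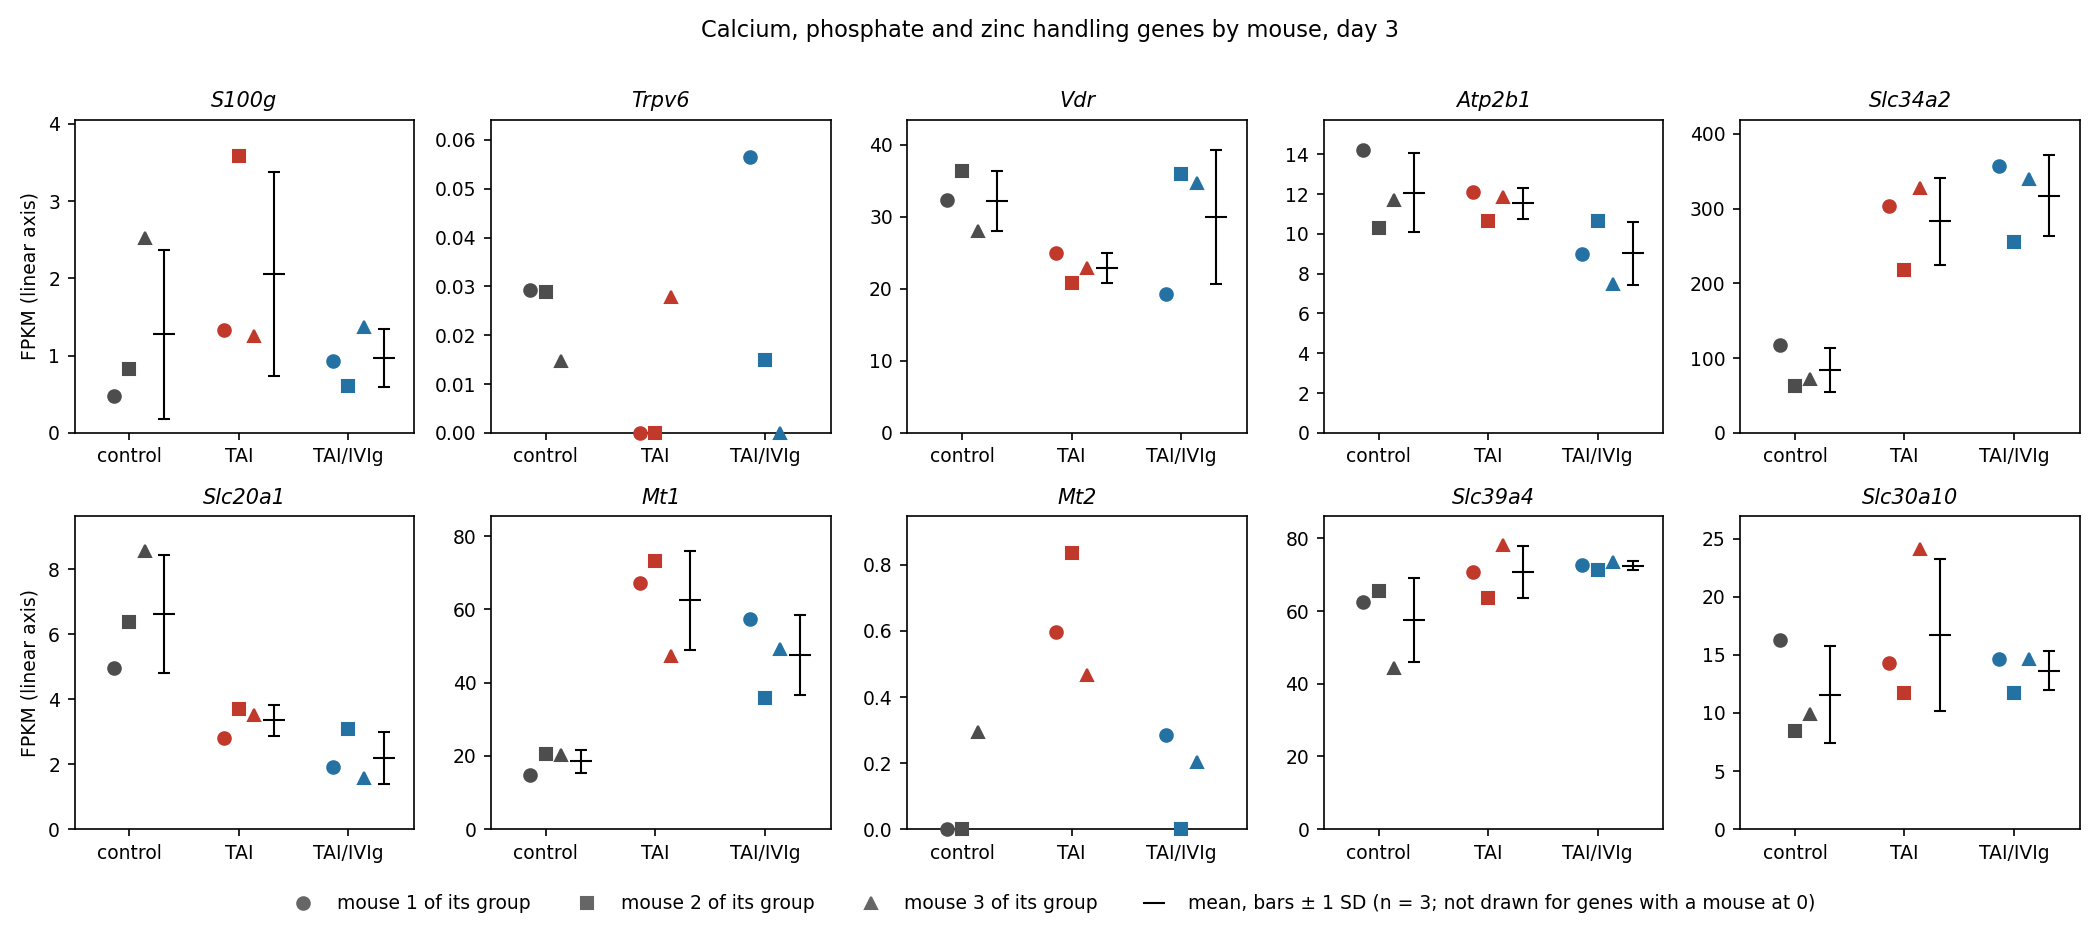
FPKM (linear axes from 0) of the 10 genes in each mouse, with symbols for mouse 1, 2 and 3 of each group and a dash with bars for the mean and 1 SD (n = 3) where no mouse was at 0. Slc34a2 and Mt1 are higher and Slc20a1 is lower in all irradiated mice than in all control mice, while the other genes overlap between at least one irradiated group and the controls.

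Irradiation was followed by higher Slc34a2 and Mt1 and lower Slc20a1 on day 3, with or without IVIg. In TAI against control, 2 of the 8 genes tested were higher (Slc34a2 and Mt1) and 1 was lower (Slc20a1), where 8.81% of all genes tested were higher and 26.1% were lower at a limma adjusted p under 0.05. Slc34a2 and Mt1 were again higher and Slc20a1 again lower in TAI/IVIg against control, where 9.06% of all genes were higher and 37.4% lower. Both comparisons share the control mice. In TAI/IVIg against TAI limma called 0 of the 8 genes, and 0 had an unadjusted p under 0.05, where 0.0% of all genes were higher, 0.0% were lower and 12.9% had an unadjusted p under 0.05. The limma voom test on the recovered reads also called 0 of the 8 genes in that comparison. The median log2 fold change of all genes tested was -0.23 for TAI and -0.39 for TAI/IVIg against control and -0.13 for TAI/IVIg against TAI, and those of the 8 genes were 0.38, 0.07 and -0.27. Setting the library medians equal moved the medians of all genes to 0.05, 0.10 and 0.08. That scaling also changed the number of genes called in TAI against control from 1150 higher and 3411 lower to 2159 higher and 1823 lower, and in TAI/IVIg against control from 1183 and 4880 to 2880 and 1894.

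**Figure D3:**
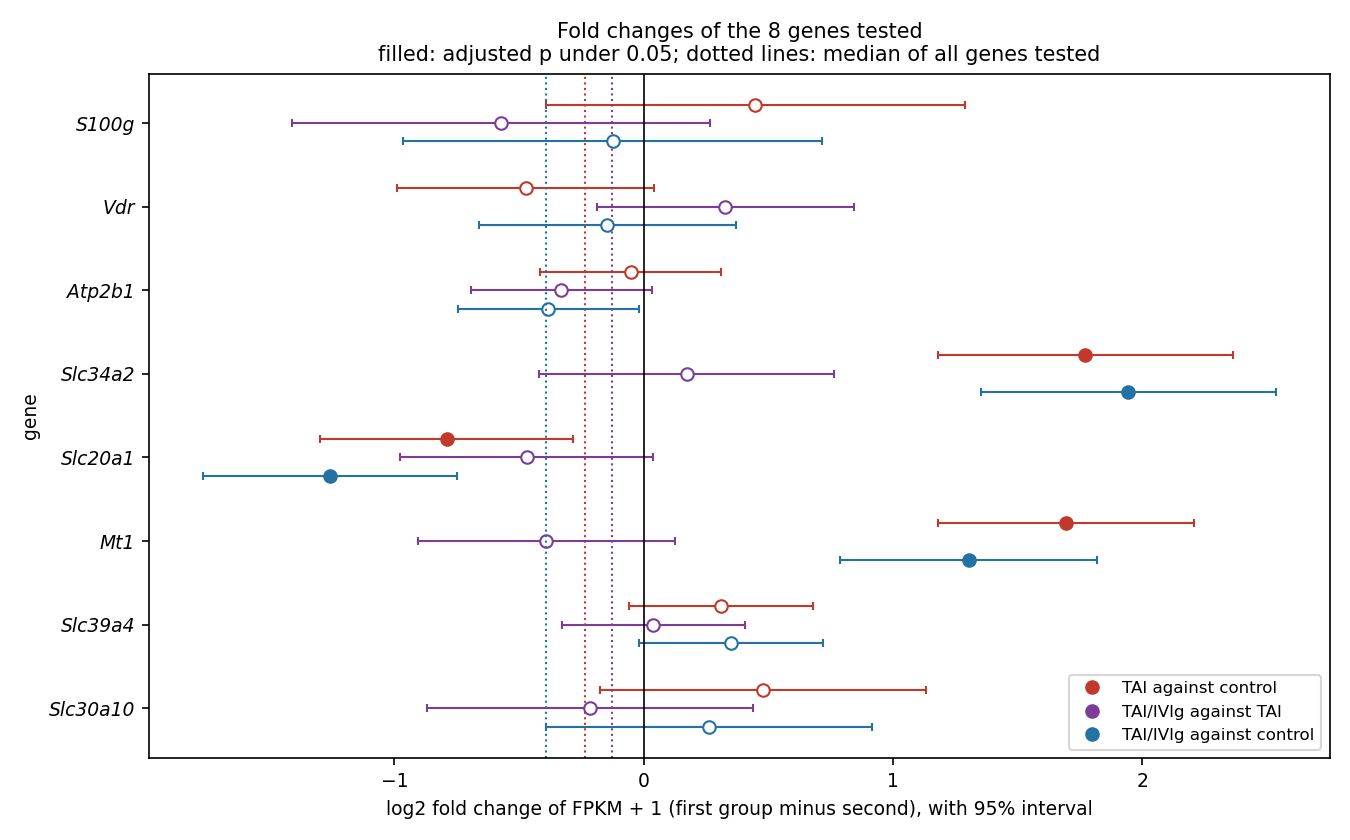
Log2 fold change of FPKM + 1 (horizontal axis) with its 95% interval for the 8 genes tested in the 3 comparisons, filled where the adjusted p was under 0.05, with a dotted line at the median of all genes tested. Slc34a2 and Mt1 lie to the right and Slc20a1 to the left in both comparisons with control, and no TAI/IVIg against TAI value is filled.

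Of the calcium genes, none of the 3 tested passed the threshold in any of the 3 comparisons. S100g (ENSMUSG00000040808, chrX:162961992-162964599), the carrier of calcium through the cytoplasm, was near the limit of detection, with 4 to 28 reads a library. Its level was 0.480, 0.825 and 2.53 FPKM in the control mice, 1.34, 3.58 and 1.26 in the TAI mice and 0.927, 0.613 and 1.37 in the TAI/IVIg mice. The groups overlapped, and a single mouse was well above its group in the control and in the TAI mice. The log2 fold change was 0.45 (95% interval -0.39 to 1.29, limma adjusted p = 0.369) in TAI against control. Against TAI the TAI/IVIg value was -0.57 (95% interval -1.41 to 0.27, limma adjusted p = 0.502), and against control it was -0.12, with the sign turned under 5 of the alternatives, among them library medians set equal (0.37). Trpv6 (ENSMUSG00000029868, chr6:41620624-41636405), the entry channel, had 2, 2 and 1 reads in the control mice, 0, 0 and 2 in the TAI mice and 4, 1 and 0 in the TAI/IVIg mice. These counts show no difference that could be detected at this depth, where a count of 0 is compatible with up to 3 reads.

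Vdr (ENSMUSG00000022479, chr15:97854425-97910630), the nuclear receptor for active vitamin D, was well measured, with 1913 to 3629 reads a library. It stood at 32.4, 36.3 and 28.0 FPKM in the control mice, 25.0, 20.8 and 22.9 in the TAI mice and 19.3, 35.9 and 34.7 in the TAI/IVIg mice. All TAI mice were below all control mice, and of the TAI/IVIg mice 1 lay below the TAI range and the other two above it. The log2 fold change was -0.47 ± 0.23 (SE, limma adjusted p = 0.135) in TAI against control, 0.33 ± 0.23 (SE, limma adjusted p = 0.527) in TAI/IVIg against TAI and -0.15 ± 0.23 (SE, limma adjusted p = 0.611) in TAI/IVIg against control. TAI against control passed the threshold when TAI/IVIg mouse 1 was left out (limma adjusted p = 0.0226) and in a fit of the 6 mice compared (0.0357), but with library medians set equal the log2 value was only -0.19. The sign of TAI/IVIg against control was not fixed either: it became 0.13 without TAI/IVIg mouse 1 and 0.35 with library medians set equal.

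Atp2b1 (ENSMUSG00000019943, chr10:98914406-99026143), the basolateral calcium pump, was measured on 1906 to 3762 reads a library. Its level was 14.2, 10.3 and 11.7 FPKM in the control mice, 12.1, 10.7 and 11.8 in the TAI mice and 9.00, 10.6 and 7.47 in the TAI/IVIg mice. Each TAI/IVIg mouse lay below each TAI mouse, and of the 8 genes Atp2b1 alone did not overlap in that comparison, where 16.1% of all genes tested were lower and 3.09% higher without overlap. The log2 fold change was -0.33 (95% interval -0.69 to 0.03, limma adjusted p = 0.411) in TAI/IVIg against TAI and -0.05 (95% interval -0.41 to 0.31, limma adjusted p = 0.816) in TAI against control. The value of -0.38 in TAI/IVIg against control (limma adjusted p = 0.0781) passed the threshold without TAI/IVIg mouse 2 (-0.50, limma adjusted p = 0.0415) and turned to 0.11 with library medians set equal. The value in TAI against control turned as well, to 0.24.

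The wider calcium list held 14 genes, of which 13 were in the table and 7 were tested. In TAI against control 0 of the 7 were higher and 2 were lower, with a median log2 fold change of -0.06, and in TAI/IVIg against control 0 were higher and 3 were lower, with a median of -0.71, beside 26.1% and 37.4% of all genes tested that were lower in these comparisons. With library medians set equal, 1 was higher and 2 lower in TAI against control (median 0.23), and 1 and 3 in TAI/IVIg against control (median -0.22). Both genes that fell in TAI mice encode SERCA pumps, which load calcium into the endoplasmic reticulum. Atp2a2 went from 90.9, 103.6 and 94.3 FPKM in the control mice to 51.6, 53.6 and 46.6 in the TAI mice and 40.6, 38.2 and 27.1 in the TAI/IVIg mice, so that the 3 groups did not overlap. Its log2 fold change was -0.91 ± 0.16 (SE, limma adjusted p = 0.00415) in TAI and -1.44 ± 0.16 (SE, limma adjusted p = 0.000471) in TAI/IVIg against control. Atp2a3 went from 34.6 to 46.7 FPKM in the control mice to 17.4 to 21.4 in the TAI mice and 9.01 to 16.6 in the TAI/IVIg mice, with log2 fold changes of -1.01 (limma adjusted p = 0.00776) and -1.60 (limma adjusted p = 0.000842). Cldn2, a claudin that lets cations such as calcium pass between the cells, was at 47.8 to 54.5 FPKM in the control mice, 10.98 to 32.1 in the TAI mice and 2.19 to 13.1 in the TAI/IVIg mice. It fell in TAI/IVIg against control (-2.97, limma adjusted p = 0.00231), and its value in TAI against control was -1.42 (limma adjusted p = 0.0582), which passed under 8 of the 20 alternatives. With the mouse numbers as a replicate block, TAI against control passed in the 9 mice (limma adjusted p = 0.0355) and in the 6 mice compared (0.0171), and it also passed without TAI mouse 2 (-1.79, 0.0415), TAI/IVIg mouse 1 (0.0222) or TAI/IVIg mouse 2 (0.0260). Against TAI, neither pump and not Cldn2 passed the threshold in the TAI/IVIg mice, with limma adjusted p values of 0.353 for Atp2a2, 0.359 for Atp2a3 and 0.354 for Cldn2.

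Among the enzymes that make and break down vitamin D and the partners of its receptor, 8 of the 12 genes listed were tested. In TAI against control 1 of the 8 was higher and 1 was lower, where 8.81% of all genes tested were higher and 26.1% lower. In TAI/IVIg against control 1 was higher and 4 were lower, where 9.06% of all genes tested were higher and 37.4% lower. With library medians set equal, the list counts in TAI/IVIg against control became 3 higher and 1 lower. Cyp24a1, which breaks down active vitamin D and is a sensitive target of the receptor, had 0 or 1 read in every library, and Cyp27b1, which makes the active hormone, had 0 to 3. Cyp27a1, a mitochondrial sterol hydroxylase that can also act on vitamin D, rose from 9.90, 7.03 and 8.35 FPKM in the control mice to 36.6, 34.9 and 34.8 in the TAI mice and 37.7, 54.5 and 48.3 in the TAI/IVIg mice. Its log2 fold change was 1.96 ± 0.16 (SE, limma adjusted p = 0.000289) in TAI against control and 2.34 ± 0.16 (SE, limma adjusted p = 8.86e-05) in TAI/IVIg against control. Pdia3, a disulfide isomerase of the endoplasmic reticulum that has also been described as a membrane binding site for vitamin D, fell from 355 to 518 FPKM in the control mice to 123 to 136 in the TAI mice and 94.8 to 113.0 in the TAI/IVIg mice. Its log2 fold change was -1.72 (limma adjusted p = 0.000387) in TAI against control and -1.97 (limma adjusted p = 0.000153) in TAI/IVIg against control. The coactivators Ncoa1 and Ncoa3 were lower in TAI/IVIg against control, at -0.69 (limma adjusted p = 0.00872) and -0.84 (limma adjusted p = 0.0135), beside values of -0.46 (limma adjusted p = 0.0552) and -0.52 (limma adjusted p = 0.0970) in TAI against control, and both lost the threshold with library medians set equal. Ncoa3 lost it as well with the replicate block in the 6 mice compared (limma adjusted p = 0.0885).

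The phosphate pair moved in opposite directions. Slc34a2 (ENSMUSG00000029188, chr5:53038081-53071664), the brush border transporter of phosphate, was at 117.0, 62.8 and 72.0 FPKM in the control mice, 303, 218 and 328 in the TAI mice and 357, 255 and 340.1 in the TAI/IVIg mice. Every irradiated mouse was above every control mouse, and the TAI and TAI/IVIg mice overlapped. The ratio of mean FPKM was 3.37 in TAI against control, with a log2 fold change of 1.77 ± 0.26 (SE, limma adjusted p = 0.00202). In TAI/IVIg against control the ratio was 3.78 and the log2 fold change 1.94 ± 0.26 (SE, limma adjusted p = 0.000904). Over all alternatives the log2 value stayed between 1.59 and 2.08 in TAI and between 1.76 and 2.44 in TAI/IVIg against control, with an adjusted p of at most 0.0128. Between the irradiated groups the log2 fold change was 0.17 (95% interval -0.42 to 0.76, limma adjusted p = 0.778).

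Slc20a1 (ENSMUSG00000027397, chr2:129198764-129211616), the widely expressed phosphate carrier, was lower in the irradiated mice. It stood at 4.96, 6.37 and 8.56 FPKM in the control mice, 2.81, 3.71 and 3.53 in the TAI mice and 1.91, 3.09 and 1.57 in the TAI/IVIg mice, on 147 to 827 reads a library. No irradiated mouse reached the lowest control mouse, while the irradiated groups overlapped. Its log2 fold change of FPKM + 1 was -0.79 ± 0.22 (SE, limma adjusted p = 0.0254) in TAI against control and -1.26 ± 0.22 (SE, limma adjusted p = 0.00267) in TAI/IVIg against control. Mean FPKM, without the added 1, was 1.98-fold and 3.03-fold lower. In TAI/IVIg against TAI the log2 fold change was -0.47 (95% interval -0.98 to 0.04, limma adjusted p = 0.409). The call in TAI against control was lost without control mouse 2 (-0.80, limma adjusted p = 0.0666), control mouse 3 (-0.61, 0.0835), TAI mouse 1 (-0.70, 0.0971) or TAI mouse 3 (-0.82, 0.0546), and with library medians set equal it was kept at a smaller size (-0.50, 0.0272). The annotation places 2 antisense genes over 13.1% of its exonic bases, with 4 to 42 reads (9830144P21Rik) and 4 to 20 reads (Gm4430) a library. The strand setting of the counting is not given, and how many reads of Slc20a1 this overlap affected is not known.

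Taken per mouse, the FPKM of Slc34a2 over that of Slc20a1 was 23.6, 9.87 and 8.41 in the control mice, 107.8, 58.6 and 93.1 in the TAI mice and 186, 82.7 and 217 in the TAI/IVIg mice. This ratio does not depend on the scaling of the library, and since both genes already separated the irradiated from the control mice in opposite directions, its separation is no further support.

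Of the other phosphate genes, 8 of the 12 listed were tested. In TAI against control 2 of the 8 were higher and 0 were lower (median log2 fold change 0.38), where 8.81% of all genes tested were higher and 26.1% lower. In TAI/IVIg against control the counts were again 2 and 0 (median 0.24), where 9.06% of all genes tested were higher and 37.4% lower. With library medians set equal, 4 and 5 of the 8 were higher and 0 lower. The 2 genes were Pdzk1 and Alpi in both comparisons. Pdzk1, a scaffold protein that binds transporters at the brush border, was at 17.9, 23.1 and 12.1 FPKM in the control mice, 52.6, 45.2 and 52.8 in the TAI mice and 50.6, 65.3 and 55.5 in the TAI/IVIg mice. Its log2 fold change was 1.49 ± 0.21 (SE, limma adjusted p = 0.00182) in TAI and 1.67 ± 0.21 (SE, limma adjusted p = 0.000783) in TAI/IVIg against control. Alpi, the intestinal alkaline phosphatase of the brush border, was at 215, 154 and 117 FPKM in the control mice, 489, 355 and 479.6 in the TAI mice and 558, 477 and 571 in the TAI/IVIg mice, with log2 fold changes of 1.47 ± 0.23 (SE, limma adjusted p = 0.00264) and 1.76 ± 0.23 (SE, limma adjusted p = 0.000862). Slc9a3r1, another scaffold that holds phosphate transporters at the membrane, was abundant but not called, at 0.35 (limma adjusted p = 0.248) and 0.52 (limma adjusted p = 0.0839). The second PiT carrier, Slc20a2, had 3.12 to 4.21 FPKM in the control mice and 4.37 to 6.56 in the TAI mice, all above the control mice (log2 fold change 0.40, limma adjusted p = 0.118). In the TAI/IVIg mice it had 3.52 to 5.07 and overlapped the control mice (0.22, limma adjusted p = 0.334). Also not called were falls of Ank in TAI (-0.32, limma adjusted p = 0.197) and of Alpl in TAI/IVIg against control (-0.57, limma adjusted p = 0.0551). Among the 8 genes tested, 7 had a log2 fold change above 0 and 1 below in TAI, and 5 and 3 in TAI/IVIg against control. The renal phosphate transporters Slc34a1 and Slc34a3 and the FGF23 co-receptor Kl were under the filter of the test. Slc34a1 had 8, 8 and 10 reads in the control mice, 1, 2 and 2 in the TAI mice and 0, 1 and 0 in the TAI/IVIg mice, Slc34a3 had 8 to 24 reads a library and Kl 1 to 13.

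**Figure D4:**
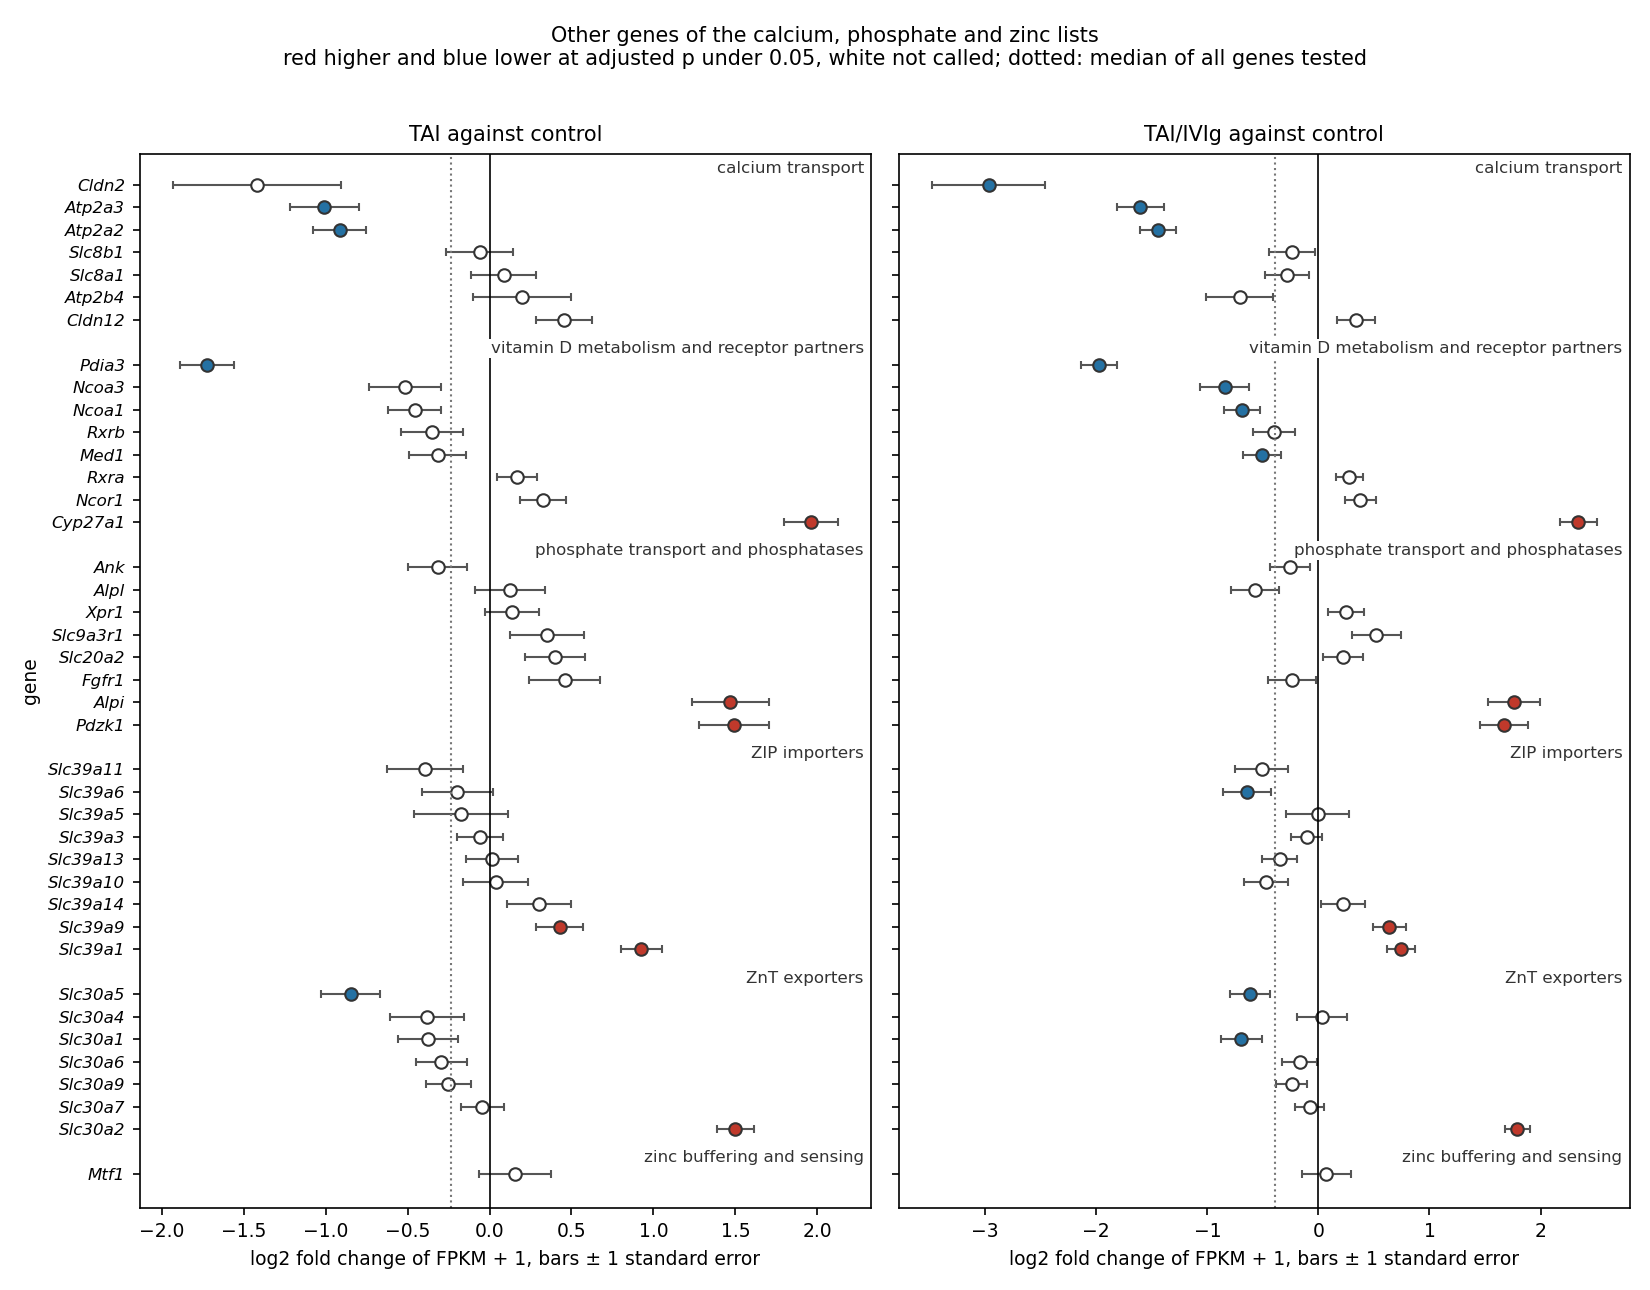
Log2 fold change of FPKM + 1 with its standard error (horizontal axes) for the tested genes of the wider calcium, vitamin D, phosphate and zinc lists, in TAI against control (left) and TAI/IVIg against control (right), with red for higher and blue for lower at an adjusted p under 0.05 and a dotted line at the median of all genes tested. Cyp27a1, Slc30a2, Pdzk1 and Alpi lie farthest to the right, and Cldn2, Pdia3 and both SERCA pump genes farthest to the left.

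In the zinc group, Mt1 rose in both comparisons with control. Mt1 (ENSMUSG00000031765, chr8:94179082-94180327) was at 14.8, 20.6 and 20.1 FPKM in the control mice, 67.1, 73.2 and 47.3 in the TAI mice and 57.4, 35.9 and 49.3 in the TAI/IVIg mice, on 321 to 1485 reads a library. Every irradiated mouse was above every control mouse, and the irradiated groups overlapped. The ratio of mean FPKM was 3.38 in TAI against control, with a log2 fold change of 1.69 ± 0.23 (SE, limma adjusted p = 0.00147), and 2.57 in TAI/IVIg against control, with a log2 fold change of 1.30 ± 0.23 (SE, limma adjusted p = 0.00245). Over all alternatives the log2 value stayed between 1.55 and 2.04 in TAI and between 1.16 and 1.83 in TAI/IVIg against control, with an adjusted p of at most 0.0219. The TAI/IVIg mice averaged less than the TAI mice, with a value of -0.39 on the log2 scale (95% interval -0.91 to 0.12, limma adjusted p = 0.461), which was within the spread between mice.

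Mt2 (ENSMUSG00000031762, chr8:94172664-94173568), which encodes a closely related metallothionein, was almost absent from the table beside it, with 0, 0 and 3 reads in the control mice, 6, 8 and 5 in the TAI mice and 3, 0 and 2 in the TAI/IVIg mice. Each TAI mouse had more reads than any other mouse, but the counts lie close to the limit that a count of 0 allows (3 reads). Mt2 was under the filter of the main test. With no filter it was called higher in TAI against control, by 0.58 on the log2 scale (limma adjusted p = 0.0353), and TAI/IVIg differed from control by 0.08 (limma adjusted p = 0.738). The antisense gene Gm45774, which covers most of Mt2 as described above, had 0 to 6 reads a library, so neither gene of the overlapping pair was seen at a level near that of Mt1. The level of Mt2 is therefore uncertain in these values, and a difference in abundance between Mt1 and Mt2 cannot be read from them. The other metallothioneins on the list, Mt3 and Mt4, had at most 9 and 2 reads. Mtf1, the transcription factor that senses zinc, was at 9.47 to 10.7 FPKM in the control mice, 8.59 to 13.3 in the TAI mice and 7.77 to 14.2 in the TAI/IVIg mice, with no call in any comparison (limma adjusted p from 0.603 to 0.875).

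Slc39a4 (ENSMUSG00000063354, chr15:76612383-76617384), the apical zinc importer, was abundant in all mice. It was at 62.6, 65.6 and 44.4 FPKM in the control mice, 70.8, 63.6 and 78.1 in the TAI mice and 72.7, 71.3 and 73.6 in the TAI/IVIg mice. The TAI/IVIg mice were all above the control mice, and the TAI mice overlapped them. The log2 fold change was 0.31 ± 0.16 (SE, limma adjusted p = 0.167) in TAI and 0.35 ± 0.16 (SE, limma adjusted p = 0.106) in TAI/IVIg against control. The second value passed the threshold with library medians set equal (0.84, limma adjusted p = 0.0231), with quantile normalization (0.59, 0.0229) and with voom and median-ratio library sizes (0.83, 0.0170), and the first with quantile normalization (0.54, 0.0345). Between the irradiated groups the difference was 0.04 (95% interval -0.33 to 0.41, limma adjusted p = 0.928).

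Slc30a10 (ENSMUSG00000026614, chr1:185454848-185468762), the exporter, was at 16.3, 8.45 and 9.95 FPKM in the control mice, 14.3, 11.7 and 24.1 in the TAI mice and 14.6, 11.7 and 14.6 in the TAI/IVIg mice. All groups overlapped, and the log2 fold change was 0.48 (95% interval -0.17 to 1.13, limma adjusted p = 0.222) in TAI and 0.26 (95% interval -0.39 to 0.92, limma adjusted p = 0.469) in TAI/IVIg against control. A non-coding gene on the opposite strand, Gm2061, shares 533 bases (9.13%) with its exons and had 412 to 1566 reads a library. Control mouse 1 and TAI mouse 3, the highest of their groups for Slc30a10, were also the highest of their groups for Gm2061, at 28.8 and 31.1 FPKM, and the part of shared reads in this was not tested.

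The other ZIP importers gave 2 higher and 0 lower of 9 tested in TAI against control, and 2 higher and 1 lower in TAI/IVIg against control, out of 13 listed. Of all genes tested, 8.81% were higher and 26.1% lower in the first comparison, and 9.06% higher and 37.4% lower in the second. Slc39a1, an importer of the plasma membrane found in many tissues, went from 27.3, 28.4 and 27.5 FPKM in the control mice to 56.5, 59.3 and 45.8 in the TAI mice and 49.4, 47.4 and 44.7 in the TAI/IVIg mice. Its log2 fold change was 0.93 ± 0.13 (SE, limma adjusted p = 0.00154) in TAI and 0.75 ± 0.13 (SE, limma adjusted p = 0.00219) in TAI/IVIg against control. Slc39a9 was higher by 0.43 (limma adjusted p = 0.0473) and 0.64 (limma adjusted p = 0.0074), the first of which did not hold under 10 of the 20 alternatives, both replicate blocks and each TAI mouse left out among them. The second did not hold with the replicate block in the 6 mice compared (limma adjusted p = 0.0627). Slc39a6 was lower in TAI/IVIg against control (-0.64, limma adjusted p = 0.0377), a call that was lost under 12 of 19 alternatives, including library medians set equal.

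The other ZnT exporters, 7 of 9 tested, gave 1 higher and 1 lower in TAI and 1 higher and 2 lower in TAI/IVIg against control. Of all genes tested, 8.81% were higher and 26.1% lower in TAI, and 9.06% higher and 37.4% lower in TAI/IVIg against control. Slc30a2, which loads zinc into vesicles, went from 14.4, 12.4 and 13.2 FPKM in the control mice to 39.3, 41.9 and 37.4 in the TAI mice and 47.9, 46.6 and 51.0 in the TAI/IVIg mice, and the 3 groups did not overlap. The mean level in TAI was 2.96-fold that in control (limma adjusted p = 0.000207), and the log2 fold change was 1.79 ± 0.11 (SE, limma adjusted p = 5.2e-05) in TAI/IVIg against control and 0.29 ± 0.11 (SE, limma adjusted p = 0.364) in TAI/IVIg against TAI. Slc30a5, which supplies zinc to enzymes of the secretory pathway, fell from 19.7 to 20.4 FPKM in the control mice to 9.80 to 11.4 in the TAI mice (-0.85, limma adjusted p = 0.00839), and in TAI/IVIg against control (-0.61, limma adjusted p = 0.0223). Slc30a1, the exporter of the basolateral membrane and a target of MTF1, was lower in TAI/IVIg against control (-0.69, limma adjusted p = 0.0145), and its value in TAI against control was -0.38 (limma adjusted p = 0.141). The Slc30a5 call in TAI/IVIg against control was lost under 7 of the 20 alternatives, among them without control mouse 2 (limma adjusted p = 0.0607) or control mouse 3 (0.0544) and with the replicate block in the 6 mice compared (0.0679). With library medians set equal, the falls of Slc30a5 and Slc30a1 in TAI/IVIg against control were no longer called, and the list then counted 2 higher and 0 lower.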

How the data were processed

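Jejunal RNA of 9 mice in 3 groups (control, TAI and TAI/IVIg) was analysed, grouped by the sample labels. The authors deposited FPKM values, 1 column per mouse, and 0 columns were left out. Submitters' processing notes name FastQC, Trimmomatic, STAR and featureCounts with mm10 and GRCm38, without versions, and the strand setting and the maker of the FPKM values are not given in the sources used here. The values of 100% of the 31685 genes were whole multiples of 1 read (tolerance 0.001, with any factor common to a gene unknown), giving totals of 17306030 to 17666715 reads in control, 16278117 to 18238706 in TAI and 16766977 to 17977352 in TAI/IVIg. No pair of replicates agreed within sampling noise (chi-square of 23.3 to 126 per degree of freedom). Symbols were paired by Ensembl identifier for 31146 genes, and coordinates and exons came from GENCODE M21 (GRCm38).

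The 13056 genes that reached 1 FPKM in 3 or more mice were compared between groups on log2(FPKM + 1) by limma (version 3.58.1, R 4.3.3) in 1 model of the 9 mice, with trended empirical Bayes moderation, Benjamini-Hochberg adjustment over all of them and a threshold of 0.05. Fold changes on this scale understate the change of low genes. The steps were tested on simulated data. The simulation raised and lowered equal numbers of genes and gave all genes the same spread setting. It therefore did not cover calls that are mostly in one direction, as in both comparisons with control. A few reads carry counting error beside the spread between mice.

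The labels do not say what a shared mouse number means. After subtraction of the group means, same-numbered control and TAI mice had correlations of 0.271, 0.241 and 0.308, each above the minimum of 0.1 set for this check. Those between TAI/IVIg and the others ran from -0.296 to 0.201. Correlations between mice of unlike number were not examined, so these values do not establish that the numbers pair control and TAI mice. All 10 genes are named, and of each wider list up to 3 genes a direction with the largest change past the threshold in either comparison with control. Other genes were named after their values were seen. Members and lists were chosen with earlier results of these data known. Alternatives comprised omission of single mice, limma voom on recovered reads (with total or with median-ratio library sizes), quantile normalization, equal library medians, models restricted to the groups being compared, a replicate block, an untrended variance, a pseudocount of 0.1, and testing either every gene above 0 or those averaging 5 FPKM or more.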

Additional observations from a re-analysis of the deposited data

How the results depend on the processing

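The counts of genes called higher, 2 in each comparison with control and 0 in TAI/IVIg against TAI, kept those values when any mouse was left out. The count became 3 in TAI against control with no filter, where Mt2 was added, and with quantile normalization, and 3 in TAI/IVIg against control with equal library medians, quantile normalization or voom and median-ratio library sizes, where Slc39a4 was added. The count of genes called lower in TAI against control, 1 with all mice, was 0 to 2 when a mouse was left out, 0 with no filter and 0 with a mean FPKM of at least 5, under which Slc20a1 was not tested, and 2 in a fit of the 6 mice compared, where Vdr was added. In TAI/IVIg against control it was 1 to 2 when a mouse was left out and 0 with a mean FPKM of at least 5. Of 474 values of single genes under 20 alternative settings, 443 kept direction and side of the threshold, 7 newly passed, 5 no longer passed and 19 turned sign, none of them past the threshold. With library medians set equal, the turned values were 0.24 for Atp2b1 in TAI against control, and 0.37 for S100g, 0.35 for Vdr and 0.11 for Atp2b1 in TAI/IVIg against control. In the same order these were 0.23, 0.26, 0.12 and 0.0293 with quantile normalization and 0.24, 0.30, 0.33 and 0.0533 with voom and median-ratio library sizes. With each mouse left out in turn, the values that turned ranged from -0.153 to 0.0634 for Atp2b1 in TAI against control, from -0.00612 to 0.321 for Slc34a2, from -0.0349 to 0.11 for Slc39a4 and from -0.426 to 0.0670 for Slc30a10 in TAI/IVIg against TAI, and from -0.384 to 0.243 for S100g and from -0.298 to 0.134 for Vdr in TAI/IVIg against control. The cause of these turns was not tested.

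A replicate block changed no call among the 8 genes in any comparison. Blocked over the 9 mice, TAI against control gave 2 genes higher and 1 lower, with an adjusted p of 0.0251 for Slc20a1. Blocked over the 6 mice compared, it again gave 2 and 1, with 0.0150 for Slc20a1 and 0.0518 for Vdr. Depth limited Trpv6, Mt2 and S100g, which had at most 28 reads a library.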
